A study of Mus musculus with 7 samples.

Results

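The genes described here are the mitochondrial carriers of the SLC25 family, taken as every gene whose symbol starts with Slc25a: 44 of the 16272 genes in a matrix of single mouse kidney cells. All 44 were followed across the 16 cell clusters that the authors numbered. The kidneys came from C57BL/6 mice of 4 to 8 weeks, 4 of them WT and 1 each labelled Cdh16CremTmG, SclCremTmG and Nphs2CremTmG. These 3 lines join a Cre driven from a tubule, a haematopoietic and endothelial, or a podocyte gene to a membrane fluorescence reporter. Nothing in the labels ties the 7 library numbers in the cell barcodes to these 7 mice, so the 7 libraries count here as replicates of 1 group, and no genotypes were compared.

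Carriers of this family sit mostly in the inner mitochondrial membrane, which few metabolites cross without a transport protein. They exchange nucleotides, phosphate, amino acids, carboxylates, cofactors and ions between the matrix and the cytosol. In the kidney the proximal tubule makes glucose, ammonia and arginine and oxidises fatty acids, and the thick ascending limb, distal convoluted tubule and acid-secreting intercalated cells spend large amounts of mitochondrial ATP on ion transport. Each of these tasks needs its own set of carriers.

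The promoter sequences of 5 carriers on which the proximal tubule results turn are shown first: Slc25a15 and Slc25a25, which were higher there than in other tubule clusters, Slc25a28, which was lower, and the paralogs Slc25a12 and Slc25a13, which went in opposite directions. Each is the 250 bases before a RefSeq transcript start (GRCm38.p6), on the minus strand for all 5 genes. Capitals mark the GC box (GGGCGG) and the CCAAT box (CCAAT), each read on both strands. The windows are chr8:22398622-22398871 for Slc25a15, chr2:32451471-32451720 for Slc25a25, chr19:43674882-43675131 for Slc25a28, chr2:71367756-71368005 for Slc25a12 and chr6:6217174-6217423 for Slc25a13. RefSeq gave 2 windows for Slc25a15 and 3 for Slc25a25, of which 1 each is shown. The other Slc25a15 window (chr8:22398278-22398527) had 80.4% G or C, against 57.6% in the one shown, and held GC boxes from -201 to -8.
Slc25a15: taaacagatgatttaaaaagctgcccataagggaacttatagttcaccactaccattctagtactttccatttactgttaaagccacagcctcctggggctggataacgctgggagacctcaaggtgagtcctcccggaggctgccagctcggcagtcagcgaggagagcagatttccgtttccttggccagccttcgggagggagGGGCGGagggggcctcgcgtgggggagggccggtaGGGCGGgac
Slc25a25: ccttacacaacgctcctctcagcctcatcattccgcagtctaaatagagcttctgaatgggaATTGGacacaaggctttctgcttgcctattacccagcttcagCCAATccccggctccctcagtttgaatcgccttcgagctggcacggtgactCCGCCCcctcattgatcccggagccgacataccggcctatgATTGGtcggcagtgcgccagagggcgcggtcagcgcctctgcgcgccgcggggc
Slc25a28: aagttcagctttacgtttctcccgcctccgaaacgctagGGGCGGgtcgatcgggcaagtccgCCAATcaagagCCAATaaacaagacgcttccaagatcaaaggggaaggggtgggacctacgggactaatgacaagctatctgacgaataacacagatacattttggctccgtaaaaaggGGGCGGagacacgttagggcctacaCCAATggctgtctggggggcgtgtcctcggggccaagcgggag
Slc25a12: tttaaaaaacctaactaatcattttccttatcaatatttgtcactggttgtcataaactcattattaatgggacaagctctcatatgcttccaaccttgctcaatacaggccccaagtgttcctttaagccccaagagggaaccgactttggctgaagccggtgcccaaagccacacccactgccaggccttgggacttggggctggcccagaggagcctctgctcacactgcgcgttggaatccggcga
Slc25a13: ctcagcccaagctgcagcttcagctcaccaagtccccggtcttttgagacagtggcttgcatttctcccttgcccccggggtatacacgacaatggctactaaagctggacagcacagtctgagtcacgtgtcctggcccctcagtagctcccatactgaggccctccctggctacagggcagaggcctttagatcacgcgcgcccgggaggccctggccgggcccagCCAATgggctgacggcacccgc
RefSeq gave 44 such windows for 34 of the members. A GC box lay in 32 of the 44 windows (25 genes), against 32.742% of all 32851 mouse promoter windows of the same length, and a CCAAT box in 21 windows (18 genes), against 33.85%. TATAAA was found for 1 member (Slc25a21) and in 12.368% of all windows. The letters AAGGTCA, the half-site of oestrogen-related receptors, were found for Slc25a34 alone among the members (4.079% of all windows), and the ETS motif CCGGAAGT for Slc25a20 alone (2.877%). None of the member windows held TCAAGGTCA (0.387% of all), CAAAGTCCA (0.384%), the NRF1 motif (0.782%), the YY1 motif (0.207%) or the HNF1 motif (0.009%). The Slc25a12 window held none of the motifs searched, and that of its paralog held a CCAAT box at -22 from the start. The windows of Slc25a10 and Slc25a16, both higher in the proximal tubule, also held none. A link between these motifs and the direction of change was not tested. A non-coding gene on the opposite strand overlaps part of the Slc25a15 window.

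The matrix held 43745 cells with 122137509 UMIs (molecules counted from their 3′ ends, so that counts do not grow with transcript length); the labels state 57979 cells. Libraries ranged from 1383 to 14136 cells and from 4217169 to 49997616 UMIs. In all, 974 barcodes (1962 cells) occurred in more than 1 library. Counts were summed per library and cluster, giving 96 sums of at least 5 cells with 10597 to 25388179 UMIs. Levels are given as CPM, the counts scaled to a sum of 1000000. Clusters were named from marker genes: 1 endothelial-like, 2 podocyte-like (78 cells), 3 proximal tubule-like (26482 cells), 4 loop of Henle-like, 5 distal convoluted tubule-like, 6 principal-like, 7 intercalated-like, 11 macrophage-like, 12 neutrophil-like (74 cells), 13 B-like, 14 T-like and 15 natural killer-like. Cluster 8 (110 cells) was highest for 3 of 8 intercalated markers, with 9291 CPM of these markers in sum. It also held 6210 CPM of principal markers, against 17719 in cluster 6 and 302 in cluster 7. Cluster 9 (601 cells, 552 of them from library 5) was led by proliferation genes over a proximal background. Cluster 10 was led by monocyte genes, and cluster 16 held 42 cells. These 4 stay unnamed, although the figures label cluster 8 mixed collecting duct and cluster 9 cycling after these markers. Cluster 1 also had the highest level of 6 of 7 mural or fibroblast markers. Haemoglobin genes were among the leading genes of cluster 3, where the summed red cell markers ranged from 0.376 to 6610 CPM by library. Since the clusters were drawn by the authors from the counts tested here, the p-values below measure how repeatable a difference was over 7 libraries, not that the clusters exist.

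Together the 44 members made up 441646 UMIs, 0.3616% of all. The phosphate carrier Slc25a3 and the ADP/ATP carriers Slc25a4 and Slc25a5, which feed ATP synthase and export its product, held 58.954% of them. The family's summed level was highest in intercalated-like cluster 7 (5082 ± 605 CPM, SD, n = 7), followed by cluster 8 (4453 ± 398, n = 4), the loop of Henle (4179 ± 387, n = 7), the distal convoluted tubule (3712 ± 348, n = 7) and the proximal tubule (3638 ± 276, n = 7). The library ranges of neighbours in that order overlapped. Lymphocytes were lowest, at 1738 ± 592 CPM in cluster 13 and 1769 ± 273 in cluster 14 (n = 7 each). Slc25a3, Slc25a4 and Slc25a5 gave 76.3% ± 3.8 of it in cluster 7 and 53.2% ± 5.57 in the proximal tubule. There the other 41 members reached 1689 ± 93.2 CPM against 1100 to 1213 CPM in clusters 4 to 7. Set beside the summed RNA of 44 nuclear genes of the respiratory chain and ATP synthase (nuclear OXPHOS genes), the family's level was 9.6% ± 0.718 of it in the proximal tubule, 8.48% ± 0.462 in cluster 7 and 6.57% ± 0.569 in the distal convoluted tubule.

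**Figure D1:**
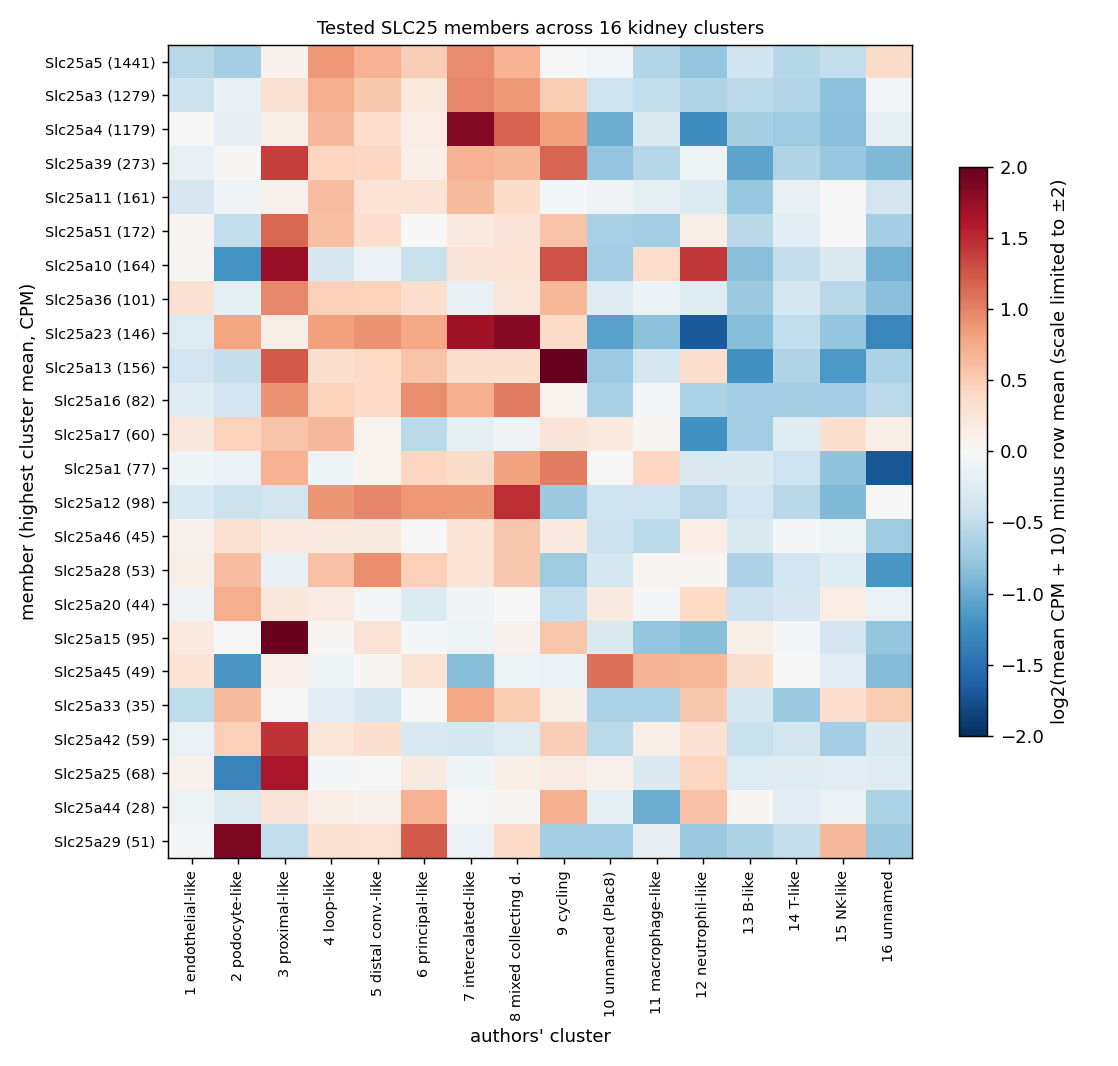
Rows are members that passed the low-count filter and columns are clusters; colour is log2(mean CPM over libraries + 10) minus the row's mean, limited to ±2, and the number beside each symbol is its highest cluster mean in CPM. Slc25a15, Slc25a10, Slc25a25 and Slc25a42 are darkest in cluster 3, Slc25a4 and Slc25a23 in clusters 7 and 8, and Slc25a13 in cluster 9.

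Of the 44 members, Slc25a3 had the most UMIs (104687), and 5 had under 100 (Slc25a47, Slc25a30, Slc25a43, Slc25a2 and Slc25a31, the germ cell ADP/ATP carrier, with 11 UMIs). The filter on low counts left 25 members in the test across 7952 genes; a member high in a single rare cluster could pass through that cluster alone. The highest cluster mean fell in cluster 3 for 9 members, in cluster 7 for 5 and in cluster 9 for 5; clusters 13 and 14 were highest for 0. The libraries of the highest cluster overlapped those of the next for all members but Slc25a42 and Slc25a34. These counts were not made over all genes, and 19 of the 44 members were too scarce to be tested. The counts are therefore not read as particular to the family.

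Several carriers were higher in the proximal tubule than in the other tubule clusters. Slc25a15, which brings ornithine into the matrix for urea and proline metabolism, stood at 103, 87.6, 76.3, 69.6, 101, 112 and 117 CPM in cluster 3 of libraries 1 to 7. Its means in clusters 4, 5, 6 and 7 were 17.4, 23.0, 16.6 and 15.2 CPM, and the highest single library among these 4 clusters had 40.0 CPM. No library of the other tubule clusters thus reached the lowest proximal library. The fitted log2 fold change, cluster 3 over the mean of clusters 4 to 7, was 2.56 ± 0.133 (SE), with an adjusted p of 1.6e-34 in edgeR's quasi-likelihood test with Benjamini-Hochberg adjustment, and the sign was positive in 7 of 7 libraries. Slc25a15 lies on GRCm38 chromosome 8, 22375551 to 22398597, on the minus strand. Oat, the mitochondrial ornithine aminotransferase, did not go with it: it was lower in the proximal tubule by 0.84 on the log2 scale and had its highest tubule mean in principal-like cluster 6 (497 CPM).

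Slc25a10, the dicarboxylate carrier that exchanges malate and succinate for phosphate, had 154, 132, 154, 172, 150, 220 and 164 CPM in cluster 3 (chromosome 11, 120491840 to 120499187, plus strand). In clusters 4 to 7 its library values ran from 6.6 to 76.3 CPM, again without overlap (log2 fold change 2.40 ± 0.126, adjusted p 3.26e-34 in edgeR, 7 of 7 libraries). Slc25a42, which carries coenzyme A, ranged from 49.0 to 73.7 CPM over the proximal libraries with a median of 59.98, and its highest value in clusters 4 to 7 was 35.7 CPM (2.14 ± 0.148, adjusted p 1.38e-25 in edgeR, 7 of 7 libraries). Slc25a25, a calcium-regulated ATP-Mg/phosphate carrier, was as far apart on average (2.16 ± 0.151, adjusted p 4.64e-25 in edgeR, 7 of 7 libraries) but differed far more among the libraries. Its cluster 3 levels were 22.3, 26.3, 111, 105, 87.5, 77.8 and 49.2 CPM, so that libraries 1 and 2 lay below the highest value in clusters 4 to 7 (35.2 CPM).

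**Figure D2:**
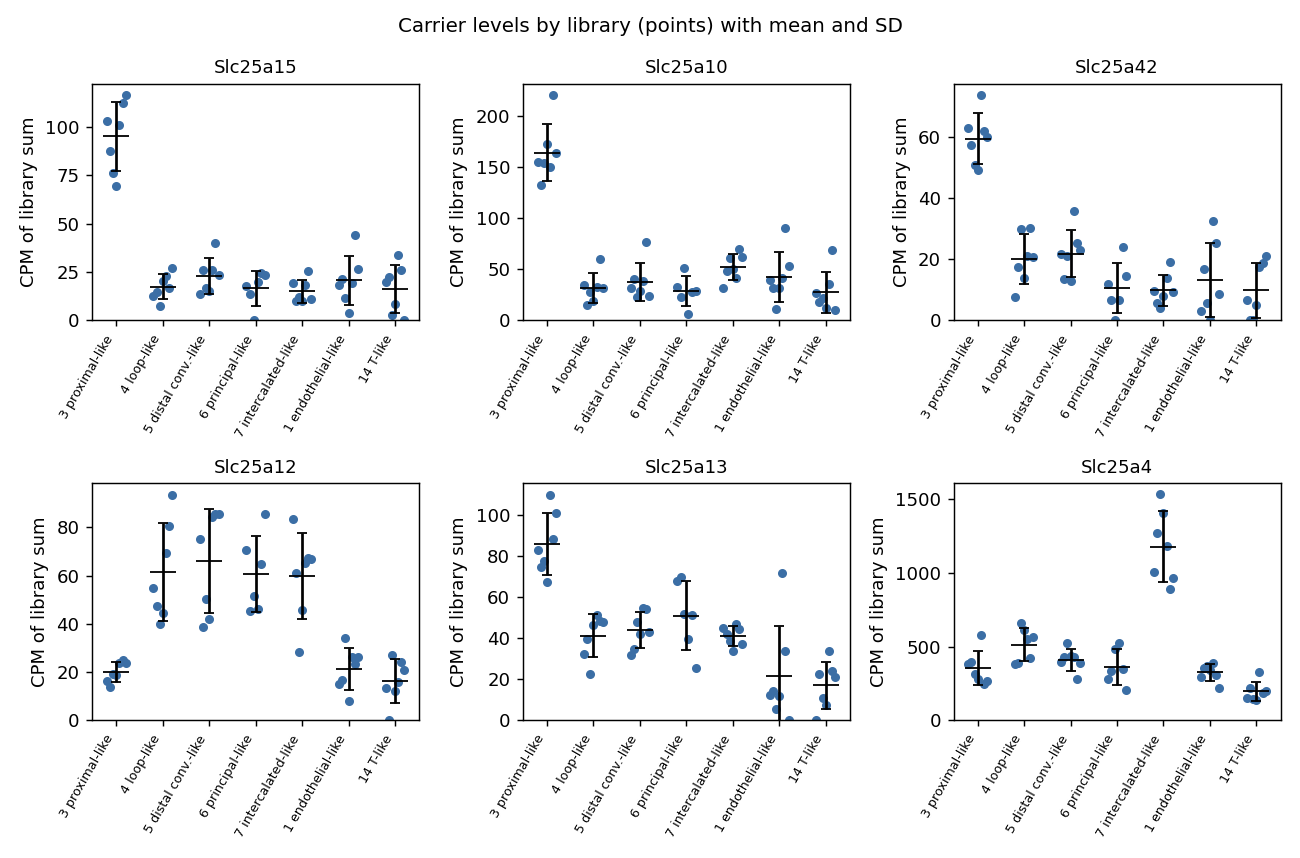
Points are library sums in CPM for 6 carriers in 7 clusters, with the mean as a bar and the SD as whiskers (axes start at 0, which hides part of 1 whisker of Slc25a13). Every proximal point lies above every point of clusters 4 to 7 for Slc25a15, Slc25a10 and Slc25a42, Slc25a12 shows the reverse, and Slc25a4 is highest in cluster 7.

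In all, 13 of the 25 tested members were higher in the proximal tubule, where 29.1% of the 7952 genes were, and 6 were lower, against 31.4% (60.4% in either direction). The members' median log2 fold change was 0.47 beside -0.04 over all genes tested. Besides the genes above, the higher members were Slc25a39, a mitochondrial glutathione carrier (1.20), Slc25a13 (1.14), Slc25a51, which carries NAD (1.07), Slc25a36, a pyrimidine nucleotide carrier (0.91), Slc25a1, which exports citrate (0.82), the peroxisomal Slc25a17 (0.80), Slc25a45 (0.66), Slc25a16 (0.51) and Slc25a20, which takes in acylcarnitines (0.47). Slc25a16 and Slc25a20 were not called with DESeq2 size factors or by DESeq2's own test; the other 17 calls were made under each of the 4 other scalings tried. Slc25a39 was the most abundant of these, at 273 ± 29.9 CPM in cluster 3 (233 to 307) against 108 to 164 CPM in clusters 4 to 7.

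Among the lower members was Slc25a12, an aspartate/glutamate carrier of the malate-aspartate shuttle that brings cytosolic reducing equivalents to the matrix. In cluster 3 it had 16.4, 13.8, 19.2, 18.8, 23.7, 24.8 and 23.6 CPM, below every library of clusters 4 to 7, of which the lowest had 28.3 CPM (log2 fold change -1.49 ± 0.139, adjusted p 1.04e-17 in edgeR, lower in 7 of 7 libraries). Slc25a23, a further ATP-Mg/phosphate carrier, was at 37.7 ± 15.1 CPM against a mean of 84.2 in the other tubule clusters (-0.99 ± 0.141, adjusted p 1.1e-09 in edgeR, 7 of 7 libraries lower). Slc25a28, which takes iron into the matrix, was at 20.3 ± 4.04 against 40.1 CPM (-0.76 ± 0.136, adjusted p 5.31e-07 in edgeR, 7 of 7). Slc25a5 was at 791 ± 221 against 1267 CPM (-0.52 ± 0.139, adjusted p 0.000654 in edgeR, 7 of 7). Slc25a4 (-0.50) was lower in 6 of 7 libraries, and Slc25a29, a basic amino acid carrier, had the lowest fold change of the tested members (-2.21, 7 of 7 libraries lower) at a mean of 1.88 CPM in cluster 3. By its GENCODE position Slc25a29 starts 163 bases from Slc25a47, which lies on the opposite strand of chromosome 12, and the genes do not overlap. The RefSeq promoter window of Slc25a47 lies further off, at 108850879 to 108851128. Whether the authors' counting used strand is not given in the sources used here.

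By count of genes the respiratory chain differed from the carriers in this comparison. The 3 most abundant carriers were lower, as many genes of the chain were: Slc25a5 (-0.52) and Slc25a4 (-0.50) were called, and Slc25a3 (-0.15) was not. Of the 44 nuclear OXPHOS genes, 3 were higher and 26 lower in the proximal tubule (median -0.35), and of the 13 mitochondrially encoded genes 0 were higher and 1 lower. Per nuclear OXPHOS RNA of the same sum, Slc25a15 was higher by 2.84 ± 0.344 on the log2 scale (SD, n = 7) and Slc25a12 was lower, at -1.17 ± 0.366. Of 13 tested genes for proteins that import precursors, carriers among them, into mitochondria, 8 had higher RNA and 0 lower. Of all genes, 29.1% were higher and 31.4% lower. The 8 included Tomm20, a receptor for matrix-bound precursors (1.29), and Timm13, a small chaperone of the intermembrane space (0.61). Of 27 enzymes that use or supply carrier substrates 11 were higher, such as Pck1 of gluconeogenesis (3.88) and Ass1 of arginine synthesis (3.92). The 11 lower ones held the cytosolic aspartate aminotransferase Got1 (-1.24) and its mitochondrial counterpart Got2 (-0.42). Of 18 other mitochondrial transport genes 4 were higher and 5 lower. Mpc1, a subunit of the pyruvate carrier, was among the higher (0.31) and Ucp2, an uncoupling protein that belongs to the carrier family without bearing an Slc25a symbol, among the lower (-2.66).

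Proximal RNA was also counted in the sums of other clusters. The levels of 8 proximal markers in other clusters, as a share of cluster 3, had a median of 10.1% in cluster 4, 12.7% in cluster 5, 6.99% in cluster 6, 5.67% in cluster 7, 18.4% in cluster 1 and 14.1% in cluster 14. Slc25a15 stood at 18.3%, 24.2%, 17.4%, 15.9%, 21.8% and 17.01% of its proximal level in the same clusters, and Slc25a10 at 19.2%, 23.0%, 17.3%, 31.8%, 26.0% and 16.8%. In cluster 12 Slc25a10 reached 78.1%, from 18 UMIs over 5 libraries that ranged from 0 to 365 CPM. The part of free proximal RNA in the levels of these carriers outside cluster 3 was not tested.

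A further 12 members were called in this comparison when the low-count filter was dropped, and 21 of the 44 were then higher and 10 lower, beside 4850 higher and 3477 lower of all 16272 genes. Slc25a48, a choline carrier, had 1478 UMIs in cluster 3 and 182 in clusters 4 to 7 (2.99 ± 0.209, adjusted p 5.56e-28 in edgeR), and its proximal level was 24.4, 25.2, 46.7, 39.0, 15.7, 18.6 and 20.8 CPM by library. Slc25a21, the oxoadipate carrier of lysine breakdown (2.78), and Slc25a34 (2.26) were also higher, and Slc25a35 (-2.72), Slc25a24 (-2.51) and Slc25a43 (-3.31) lower. Slc25a24 had its highest mean in endothelial-like cluster 1, at 21.9 ± 10.5 CPM against 0.719 to 4.75 in clusters 4 to 7.

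Shares within pairs of related carriers do not depend on how totals are scaled, and were compared between cluster 3 and clusters 4, 5 and 14 by exact two-sided permutation tests over paired libraries. The p-values were adjusted over the 14 tests that had at least 6 libraries. With 7 libraries the smallest p such a test can give is 0.015625, and 9 of the 14 passed. Slc25a12 made up 18.9% ± 2.45 of the aspartate/glutamate carrier UMIs (Slc25a12 plus Slc25a13) in the proximal tubule, 59.5% ± 6.12 in the loop of Henle and 58.9% ± 7.94 in the distal convoluted tubule. In every library Slc25a13 was the main form in cluster 3 and its share was lower in clusters 4 and 5 (adjusted p 0.0273, exact permutation test, n = 7, for both). The share of Slc25a12 was also above 50% on average in clusters 6 (55.4% ± 13.7, n = 5) and 7 (58.1% ± 7.48, n = 7), and it was 12.5% ± 10.8 in cluster 9 (n = 3). Slc25a13, the form of the liver, lies on chromosome 6, 6041218 to 6217173, and Slc25a12 on chromosome 2, 71271063 to 71367749.

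Slc25a10 and Slc25a11, the dicarboxylate and the oxoglutarate carrier, both move malate. Slc25a10 had 60.3% ± 4.36 of their joint UMIs in the proximal tubule and 16.7% ± 7.09 in the loop of Henle, 22.8% ± 8.19 in the distal convoluted tubule and 23.0% ± 14.5 in T-like cells, with 7 of 7 libraries higher in cluster 3 each time (adjusted p 0.0273, exact permutation test, n = 7). Slc25a11 itself was at 107 CPM in cluster 3 against a mean of 142 in clusters 4 to 7, below it in 7 of 7 libraries (log2 fold change -0.23, adjusted p 0.0576 in edgeR). It was called lower with DESeq2 size factors (-0.48), with library totals (-0.38), by DESeq2 (-0.49) and without library 5. Of the iron carriers, Slc25a28 held 52.7% ± 4.83 with Slc25a37 in the proximal tubule against 79.2% ± 8.87 and 83.8% ± 6.41 in clusters 4 and 5, 0 of 7 libraries higher in cluster 3 (adjusted p 0.0273, exact permutation test, n = 7). Slc25a4 held 31.1% ± 7.71 of the ADP/ATP carrier UMIs in the proximal tubule against 27.2% ± 2.89 in cluster 4 (difference 3.93 ± 7.27 points, adjusted p 0.219), 25.6% ± 2.22 in cluster 5 (adjusted p 0.0597) and 27.7% ± 6.0 in cluster 14 (adjusted p 0.0273), by exact permutation tests with n = 7. The share of Slc25a39 with Slc25a40 was 96.1% ± 0.956 in cluster 3 against 89.9% ± 6.0 in cluster 4 (adjusted p 0.0597) and 93.7% ± 2.42 in cluster 5 (adjusted p 0.0486, exact permutation tests, n = 7). For the pyrimidine nucleotide carriers Slc25a33 and Slc25a36 no difference was detectable (adjusted p 0.766 and 0.707, exact permutation tests, n = 7; differences -1.13 ± 9.83 and 1.18 ± 5.9 points, SD). With 6 libraries the smallest p is 0.03125, and 10 tests passed without library 3 and 0 without any other library.

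**Figure D3:**
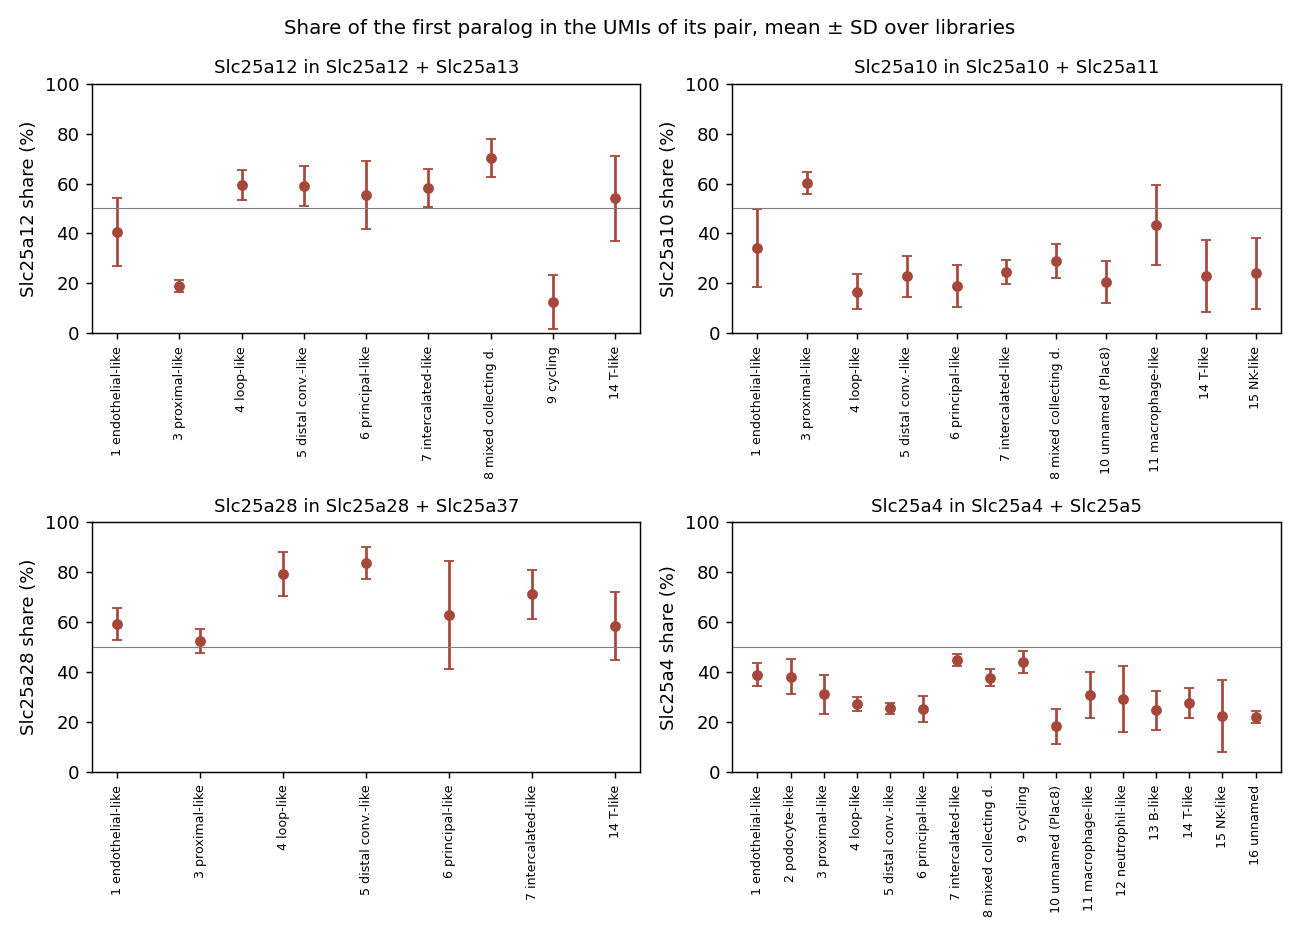
Each panel gives the mean share of the first carrier in the UMIs of its pair, in percent, with the SD over libraries, for clusters with at least 3 libraries of 10 or more pair UMIs; the grey line marks equal parts. The Slc25a12 share is lowest in clusters 9 and 3, the Slc25a10 share is highest in cluster 3, and the Slc25a4 share is highest in clusters 7 and 9.

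In intercalated cells of the collecting duct 8 tested members were higher than in principal cells, among them all 3 abundant carriers of ATP synthesis, and 3 were lower. Slc25a4, the ADP/ATP carrier of heart and muscle, had 1003, 1268, 1537, 1404, 1181, 889 and 967 CPM in cluster 7 of libraries 1 to 7, and 277, 332, 482, 521, 349 and 202 CPM in cluster 6 of libraries 1 to 6. The lowest intercalated library was above the highest principal one. The log2 fold change was 2.03 ± 0.227 (adjusted p 5.23e-13 in edgeR, 6 of 6 libraries). Its isoform Slc25a5 differed by 0.72 (1441 ± 281 against 1052 ± 279 CPM), so that Slc25a4 made up 44.98% ± 2.44 of their UMIs in cluster 7 and 25.3% ± 5.11 in cluster 6. Slc25a3 was also higher, at 1279 ± 175 against 752 ± 105 CPM (1.03), without overlap between the 2 groups of libraries.

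Slc25a23 was at 132 ± 30.5 CPM in cluster 7 and 64.9 ± 17.99 in cluster 6 (1.04 ± 0.218, adjusted p 6.62e-05 in edgeR, 6 of 6 libraries). Slc25a33, which imports pyrimidine nucleotides, was at 35.1 ± 16.2 against 16.4 ± 5.99 CPM (1.20 ± 0.300, adjusted p 0.000895 in edgeR, 6 of 6), and Slc25a10 at 51.99 ± 13.02 against 28.3 ± 14.6 CPM (1.17 ± 0.264, adjusted p 0.00021 in edgeR, 5 of 6). Slc25a39 (0.85) and Slc25a11 (0.60) complete the 8 of 25 tested members that were higher in cluster 7, where 12.7% of all genes were. Of the tested members 3 were lower, against 12.3% of all genes (25.0% in either direction), among them Slc25a45 (5.26 ± 2.24 against 23.3 ± 7.38 CPM, -1.68 ± 0.343, adjusted p 3.99e-05 in edgeR, 6 of 6 libraries lower) and Slc25a29 (-2.16, from 40 and 60 UMIs). The members' median was 0.15 beside -0.01 for all genes.

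The respiratory chain was higher almost throughout: 42 of 44 nuclear OXPHOS genes were higher in cluster 7 and 0 lower (median 0.82), as were 8 of 13 mitochondrially encoded genes. Set per nuclear OXPHOS RNA in each library, Slc25a4 was still higher by 1.16 ± 0.233 on the log2 scale (SD, 6 of 6 libraries), Slc25a3 by 0.21 ± 0.197 (6 of 6) and Slc25a23 by 0.26 ± 0.352 (5 of 6), whereas Slc25a5 came to -0.09 ± 0.232 (2 of 6 higher). On this scale 20 of the 25 members were below 0, with a median of -0.76, and 5 were above. The share of all genes below 0 was not computed. Since the OXPHOS genes had a median of 0.82 and all genes one of -0.01, a gene of unchanged level also falls below 0. The count is therefore not a result about the carriers. Of the partner enzymes 9 of 27 were higher, among them the shuttle enzymes Mdh1 (1.25) and Got1 (1.26), and 3 were lower, among them Oat (-1.89). Of the genes for import proteins 6 of 13 were higher and 0 lower, where 12.7% of all genes were higher. Of the other transport genes 6 of 18 were higher, among them Mpc1 (1.17), and 1 lower. Median UMIs per cell were 3917 in cluster 7 and 2894 in cluster 6, and the part of this difference in the results was not tested beyond thinning each cell to 1000 UMIs. After thinning, 7 members were higher and 0 lower of 12 tested, beside 505 higher and 461 lower of 4925 genes.

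Between the loop of Henle and the distal convoluted tubule, adjoining segments that are both rich in mitochondria, 2 of 25 tested members were called at this depth. Of all genes 12.8% were, so the count is not read as particular to the carriers. Slc25a28 was higher in the distal convoluted tubule, at 59.9, 44.6, 56.5, 45.3, 54.2, 67.1 and 46.9 CPM in cluster 5 against 37.4, 27.4, 64.7, 27.4, 39.0, 58.7 and 27.0 in cluster 4 (0.65 ± 0.189, adjusted p 0.0101 in edgeR). The libraries of the 2 clusters overlapped, and library 3 went the other way. Slc25a17, which carries coenzyme A, FAD and NAD into peroxisomes, was lower, at 37.6 ± 6.69 against 60.5 ± 10.5 CPM (-0.49 ± 0.172, adjusted p 0.0423 in edgeR, 6 of 7 libraries lower). Each is the only one of 25 tested members called in its direction, against 6.75% of all genes higher and 6.01% lower (12.8% in either direction). The Slc25a28 call was lost without library 5 and that of Slc25a17 without any of libraries 1, 2, 4, 5, 6 and 7; neither held in all scalings. The members' median was 0.23 beside 0.05 over all genes, and 7 of 44 nuclear OXPHOS and 10 of 13 mitochondrially encoded genes were higher in cluster 5. Median mitochondrial UMIs per cell were 31.7% in cluster 5 and 21.8% in cluster 4, and their part in these values was not tested.

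**Figure D4:**
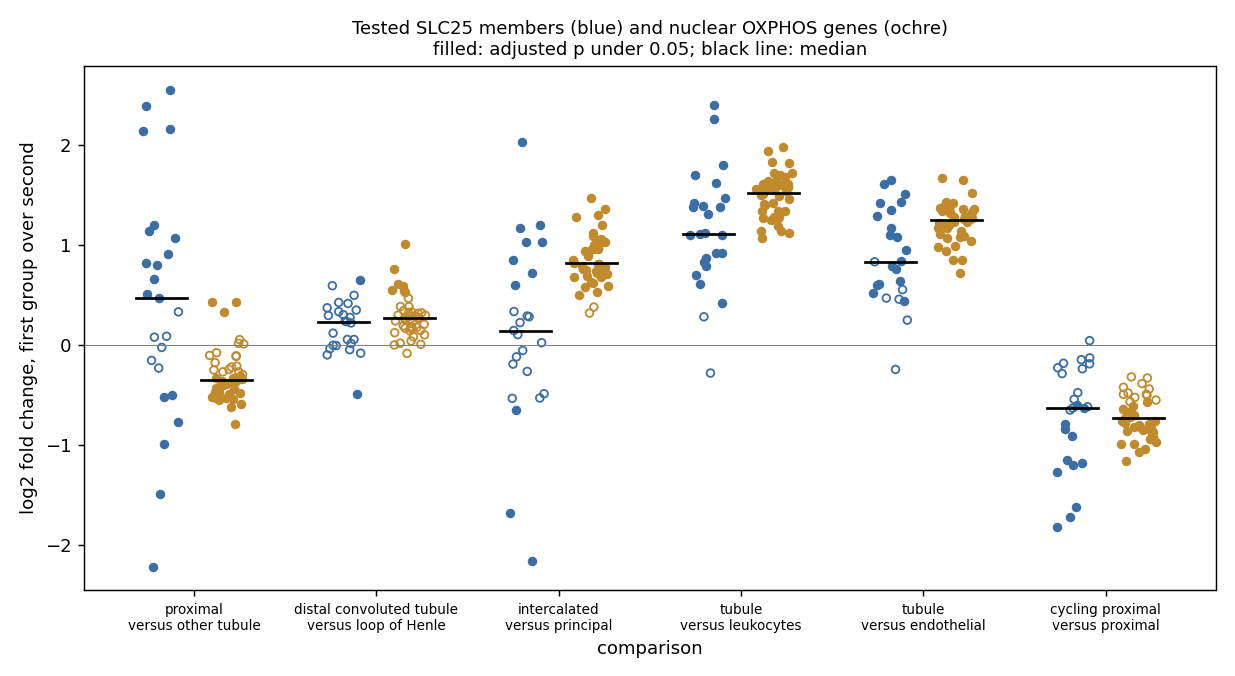
Points are log2 fold changes of the 25 tested members (blue) and of 44 nuclear OXPHOS genes (ochre) in 6 comparisons (cycling proximal stands for cluster 9), filled where the adjusted p was under 0.05, with the median as a black line. The members spread from -2.21 to 2.56 in the proximal comparison, where the OXPHOS genes sit around a median of -0.35, whereas in the leukocyte and endothelial comparisons both groups lie mostly above 0.

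Against the leukocytes of clusters 11 to 15, the tubule clusters had higher levels of nearly the whole tested family: 23 of 25 members were higher and 0 lower, where 43.6% of all genes were higher and 14.1% lower (57.6% in either direction). The members' median was 1.11 beside 0.43 for all genes. Slc25a23 differed most among the members that were not scarce, at a mean of 74.9 against 13.998 CPM (2.27 ± 0.222, adjusted p 2.62e-16 in edgeR). It was followed by Slc25a16, at 62.1 against 21.1 CPM (1.80 ± 0.199, adjusted p 8.55e-14), Slc25a13, at 52.7 against 19.5 CPM (1.71 ± 0.217, adjusted p 2.24e-11), and Slc25a4, at 563 against 193 CPM (1.62 ± 0.124, adjusted p 2.12e-22), each higher in 6 of the 6 libraries that had sums of all tubule clusters. Slc25a45 and Slc25a20 were not called (-0.28 and 0.28). Slc25a45 had its highest mean in monocyte-led cluster 10 (48.8 CPM) and the next in macrophage-like cluster 11 (34.2 CPM). All 44 nuclear OXPHOS and all 13 mitochondrially encoded genes tested were higher in the tubule (median 1.53 for the former). Per nuclear OXPHOS RNA 20 of the 25 members were below 0 (less in the tubule), with a median of -0.70 on the log2 scale, and 12 were higher in no library. The share of all genes below 0 was not computed. With medians of 1.53 for the OXPHOS genes and 0.43 for all genes, a typical gene also falls below 0, so the count is not a result about the carriers. A small constant added to each member's count raised scarce members most in the small leukocyte sums. Slc25a45 was at -1.81 ± 0.405 and Slc25a20 at -1.54 ± 0.811, Slc25a3 at -0.14 ± 0.194, and Slc25a23 was among the 5 above 0, at 0.48 ± 0.622 (SD, log2). These ratios are given without a test.

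Against endothelial-like cluster 1 the picture was similar, with 19 of 25 members higher and 0 lower (22.3% and 25.8% of all genes, 48.1% in either direction) and a median of 0.83 beside -0.01. Slc25a23 led again (74.9 against 26.7 CPM, 1.65 ± 0.223, adjusted p 2.96e-10 in edgeR), followed by Slc25a12 (53.6 against 21.3 CPM, 1.61 ± 0.228, adjusted p 1.48e-09), Slc25a5 (1172 against 505 CPM, 1.51 ± 0.153, adjusted p 1.93e-15) and Slc25a16 (62.1 against 27.5 CPM, 1.43 ± 0.21, adjusted p 4.83e-09), each higher in 6 of 6 libraries. With library totals in place of TMM, edgeR's scaling factors, 12 members were higher and 1 lower, and 12 were higher without library 7. All 44 nuclear OXPHOS genes were higher in the tubule (median 1.26). Of the carriers, Slc25a24 alone was lower in the tubule when the low-count filter was dropped (-3.58 ± 0.327, adjusted p 3.67e-19 in edgeR, from 70 and 49 UMIs). These sums give RNA per UMI of a cluster and cannot separate fewer mitochondria from less carrier RNA per mitochondrion.

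Cluster 9, in which proliferation genes stood over a proximal background, had lower fitted levels than the proximal tubule for 12 of the 25 tested members and higher ones for 0, against 16.5% of all genes lower and 6.9% higher (23.4% in either direction), with medians of -0.63 and -0.26. Slc25a25 (-1.82 ± 0.365, adjusted p 4.71e-05 in edgeR), Slc25a33 (-1.72 ± 0.449, adjusted p 0.00208), Slc25a42 (-1.62 ± 0.336, adjusted p 8.73e-05) and Slc25a15 (-1.27 ± 0.277, adjusted p 0.000183) were the furthest apart. These 4 were the only calls made under all 4 other scalings, and the first 3 were lost without library 5, which held 552 of the 601 cells; 6 members were lower without it. In that library, the deepest, the levels in clusters 9 and 3 were 33.5 and 87.5 CPM for Slc25a25, 9.26 and 19.1 CPM for Slc25a33, 40.6 and 73.7 CPM for Slc25a42 and 89.9 and 101 CPM for Slc25a15. Slc25a15 was thus little lower in library 5, while its cluster 9 mean over 4 libraries was 29.5 CPM. The cluster 9 sums of libraries 1, 2 and 6, which pulled that mean down, came from 9, 28 and 6 cells. Its fitted change therefore rested largely on these small sums. The mean CPM of Slc25a33 was higher in cluster 9 (19.2 against 16.4), with 55.9 CPM in library 6. Not all carriers were lower: Slc25a13 had 283, 104, 124 and 112 CPM in cluster 9 against 82.9, 74.8, 110 and 88.5 in cluster 3 of libraries 1, 2, 5 and 6, higher in 4 of 4, although its fitted value was -0.23 (adjusted p 0.656 in edgeR). Slc25a3 was called lower (-0.60) while its mean CPM was higher (927 against 805), and its sign reversed in 1 of the scalings. Of the nuclear OXPHOS genes 32 of 44 were lower and 0 higher, and all 13 mitochondrially encoded genes were lower.

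Over the 11 clusters with at least 6 library sums, the mean levels of Slc25a5 and Slc25a3 had the closest likeness in pattern (Pearson r of 0.95), followed by Slc25a39 with Slc25a13 (0.95), Slc25a16 with Slc25a13 (0.94) and Slc25a23 with Slc25a3 and with Slc25a4 (0.93 each). The clusters are sums of the same libraries and differ in depth, so these values describe the profiles only.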

How the data were processed

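The authors' deposited table holds raw UMI counts per gene and cell with their cluster number of each cell. The submitters' processing notes name Cell Ranger 1.3, STAR and the builds mm10 and GRCm38.p4; filters and clustering are not given in the sources used here. The cells had 707 to 15000 UMIs each, from 201 to 2998 genes, with mitochondrial shares up to 50%. Libraries were read from barcode suffixes, and no label ties them to mice. No doublet caller was run; dropping the top 5% of cells by UMIs was an alternative.

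Counts were summed per library and cluster (at least 5 cells; median sum 190848 UMIs). edgeR 4.0.16 in R 4.3.3 fitted TMM-scaled sums by quasi-likelihood with terms for cluster and library, which pair clusters of the same library. Genes passing its low-count filter were tested, with Benjamini-Hochberg adjustment at 0.05. In simulated data for the 7952 genes the proximal comparison recovered 91% of 2-fold and 97% of 4-fold changes and the intercalated one 53% and 89%, at a dispersion set by hand. Pair shares needed 10 UMIs per sum. Full statistics were given for up to 4 members per direction with the largest change among those called, with average log2 CPM of at least 4 and 10 counts in each arm. Promoters came from RefSeq (GRCm38.p6) and gene positions from GENCODE on GRCm38. Members, lists and tests were chosen with earlier results of these data known. Alternatives were DESeq2 1.42.0, other scalings and filters, thinning to 1000 UMIs per cell, no library term and leaving out each library. Intervals of counting error were not added to the spread over libraries. The levels of 1 tested member are not reported here, although it is counted among the members.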

Additional observations from a re-analysis of the deposited data

Results flagged for a closer look

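Among 37 groups of 4 to 10 library sums examined, 1 held a value far from the others: Slc25a13 in cluster 9, where library 1 had 282.53 CPM and the nearest other library 124.3 CPM (gap over range 0.885, critical value 0.829, n = 4). Library 1 contributed 9 cells to that cluster. Chance alone flags about 1 in 20 groups.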

How the results depend on the processing

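Of the members' fold changes given with full statistics, 433 values under the alternatives kept direction and call, 25 lost the call and 0 reversed. Under the 4 other scalings, calls were kept for 17 of 19 members in the proximal comparison, 10 of 11 in the intercalated, 19 of 23 in the leukocyte, 12 of 19 in the endothelial, 0 of 2 in the distal and 4 of 12 in the cluster 9 comparison. Counts of called members moved by over 1.5 times as follows. In the proximal comparison (13 higher, 6 lower) there were 21 higher and 10 lower of 44 without the low-count filter, 10 lower with DESeq2, 6 higher and 3 lower of 12 tested after thinning, and 20 higher of 33 tested with only the compared clusters. In the distal comparison (1 and 1) DESeq2 size factors, DESeq2's test and no filter gave 0 lower, and library totals without TMM 0 higher. Thinning gave 0 and 0 of 12 tested there, only the compared clusters 3 higher of 25, and leaving out 1 library 0 to 1 in each direction. Thinning gave 0 lower of 12 tested in the intercalated comparison (3) and 12 higher of 12 tested against leukocytes (23). Against endothelium (19 and 0) library totals gave 12 higher and 1 lower, and no filter or at least 20 cells per sum 1 lower. Thinning gave 9 higher of 12 tested there, and leaving out 1 library 12 to 21 higher. In cluster 9 (12 lower) there were 6 with DESeq2 size factors or DESeq2, 4 with library totals and 6 to 12 leaving out 1 library. After thinning 4 of 12 tested were lower, and with only the compared clusters 7 of 34. Without the replicate block, that is without the library term that pairs clusters of a library, the distal comparison had 0 and 0. Cluster 9 then had 6 lower, and the other counts stayed within 1.5 times.

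Scaling also shifted all genes. The median log2 fold change of all genes in the proximal comparison went from -0.04 to -0.30 with DESeq2 size factors, -0.18 with library totals and -0.39 with DESeq2, and higher calls went from 48.1% of all calls to 31.3%, 37.9% and 29.0%. The same shares were 50.9% against 31.8%, 39.0% and 31.0% in the intercalated, 46.3% against 37.0%, 21.4% and 37.0% in the endothelial, and 29.5% against 67.2%, 78.2% and 77.0% in the cluster 9 comparison. They were 52.9% against 19.8% with library totals in the distal and 75.6% against 65.6% with library totals and 61.2% with DESeq2 in the leukocyte comparison. Of the pair shares, 9 tests passed, 8 without the pairing of libraries, and 0 to 10 leaving out 1 library. The Slc25a33 share in its pair, a difference that never passed, reversed between clusters 3 and 4 without library 5 (1.57 points) and between clusters 3 and 5 after thinning (-0.66) and without library 3 (-0.56). Leaving out 1 library gave -3.27 to 1.57 points in the first case and -0.56 to 2.42 points in the second. Depth limits the 5 members under 100 UMIs and clusters 2, 8, 12 and 16, which hold the fewest cells.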
